A study of Kalanchoe laxiflora with 7 samples.

Results

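A set of 471 of the 27768 gene models of Kalanchoë laxiflora peaked in a single library, that of the KlaxMUTE1 overexpression (OE) line with the lowest level of KlaxMUTE1. The members were chosen by measured values, on the CPM scale (the raw count of a gene model per 1000000 counts of its library). A member had at least 1 count in some wild-type library and at least 2 CPM in KlaxMUTE1 OE replicate 1. That CPM was also at least 3 times the CPM of each of the other KlaxMUTE1 OE libraries and at least 4 times the highest wild-type CPM. The rule left out 2 named gene models, of which 1 met the limits. All 471 members were among the 21902 gene models with at least 10 counts over the 7 libraries, which were the ones tested.

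The libraries came from the mature seventh leaf pair. Wild type was 4 individuals of the accession OBG, and KlaxMUTE1 OE was 3 independent transgenic lines with 1 library each. The lines carry mCitrine fused to KlaxMUTE1 under the constitutive 35S promoter, which is active in most cells of the leaf, and were regenerated from tissue culture under kanamycin selection. The transgene and the passage through transformation cannot be told apart with these libraries. For replicate 1, the line, the plant and the library cannot be told apart either, so its peak has no replicate check. The tissue was bulk leaf, in which fewer cells of a type and less RNA per cell cannot be told apart.

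MUTE is a basic helix-loop-helix transcription factor that in Arabidopsis ends the stem-cell-like divisions of the stomatal lineage and starts the formation of guard cells. Independent lines of the same construct usually differ in where the transgene inserted, in copy number and in transgene expression. Of the protein classes among the members, pathogenesis-related proteins are secreted proteins of plant defence, and cysteine-rich receptor-like kinases sit in the plasma membrane and take part in sensing signals from outside the cell.

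KlaxMUTE1 (KlGene012921) had 0 counts in each wild-type library, against a floor of 3 counts that corresponds to 0.122 to 0.161 CPM. It had 820 CPM in KlaxMUTE1 OE replicate 1, 1430 CPM in replicate 2 and 2402 CPM in replicate 3. Replicate 1 was thus lowest, which restates how the line was named, since the name came from these same data. Reads of the transgene and of the endogenous gene were counted together. Library totals were 18665659 to 24659199 counts in wild type and 20679921 to 27216722 in KlaxMUTE1 OE. Across the 21902 tested gene models, Pearson's r of log2(CPM + 1) was 0.9765 to 0.9904 between wild-type libraries and 0.905 to 0.9543 between KlaxMUTE1 OE libraries, lowest for replicates 1 and 2. Between wild type and KlaxMUTE1 OE it was 0.8661 to 0.9327. Replicate 1 had the lowest r with each of the 4 wild-type libraries.

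The members together took 0.595%, 0.585%, 0.532% and 0.567% of the counts in wild-type replicates 1 to 4. In KlaxMUTE1 OE replicate 1 their share was 8.98% (exact Clopper-Pearson 95% interval 8.96 to 8.99, counting error only). It was 1.31% in replicate 2 and 1.51% in replicate 3. The rule fixed that the share was highest in replicate 1, so its size is a description. The member with most counts, KlGene020449, made up a small part of it, and the share in replicate 1 without that member was 8.53%.

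**Figure D1:**
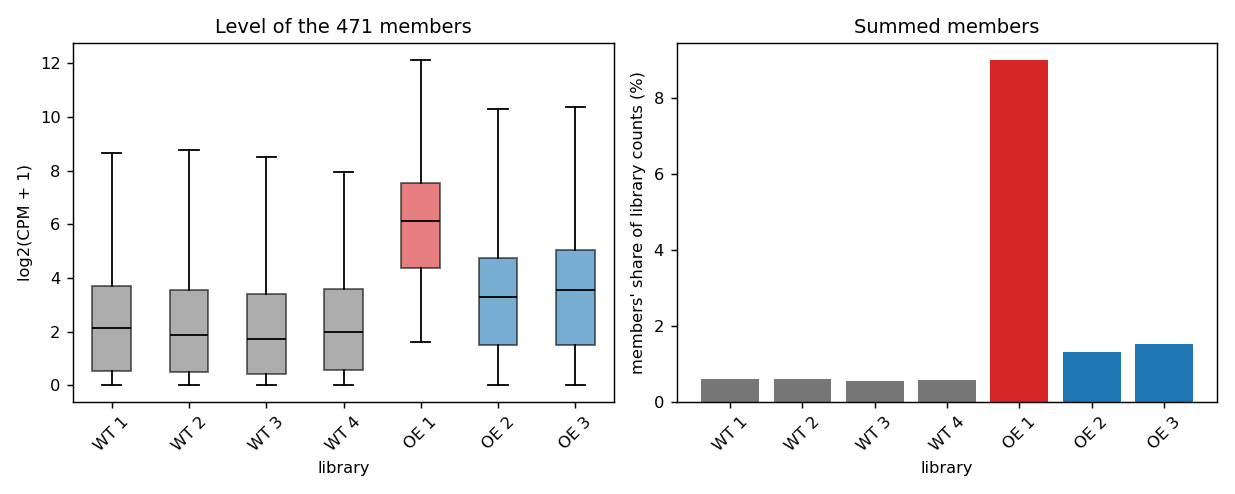
Left, log2(CPM + 1) of the 471 members in each library (boxes, quartiles with the median line; whiskers, lowest and highest member). Right, the members' summed share of all counts in percent. Wild-type (WT) libraries are grey, KlaxMUTE1 OE replicate 1 is red and the other OE libraries are blue. The share is 0.532 to 0.595% in wild type, 8.98% in OE replicate 1 and 1.31% and 1.51% in the others.

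The median member was at 3.43, 2.64, 2.32 and 2.95 CPM in wild-type replicates 1 to 4. It was at 69.3 CPM in KlaxMUTE1 OE replicate 1, 8.71 CPM in replicate 2 and 10.6 CPM in replicate 3. Members therefore ranged from gene models that were nearly silent in wild-type leaves to well-expressed ones. Under 1 CPM in every wild-type library were 126 members, and 66 had no count at all in 1 to 3 of the 4 wild-type libraries. At the other end, 101 members were over 10 CPM in every wild-type library. In KlaxMUTE1 OE replicate 1, 395 members reached 10 CPM, 186 reached 100 CPM and 18 reached 1000 CPM.

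The size of the peak varied widely among members. Replicate 1 was a median of 5.33 times the higher of replicates 2 and 3 (quartiles 3.94 and 8.16, n = 469, with 2 members at 0 in both). It was a median of 13.0 times the highest wild-type library (quartiles 7.09 and 33.1). In 78 members replicate 1 was at least 10 times every other library, in 24 at least 20 times and in 4 at least 100 times. The limits set the lower end of these ratios. The member nearest the limit over the other lines had a ratio of 3.01 and the nearest gene model outside had 2.99. For the limit over wild type the values were 4.03 and 3.89, and for the minimum level 2.03 and 1.98 CPM. Each member had at least 42 counts in replicate 1 (median 1434). For 384 members the lower end of the counting interval was also past both fold limits, and for the other 87 it was not.

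**Figure D2:**
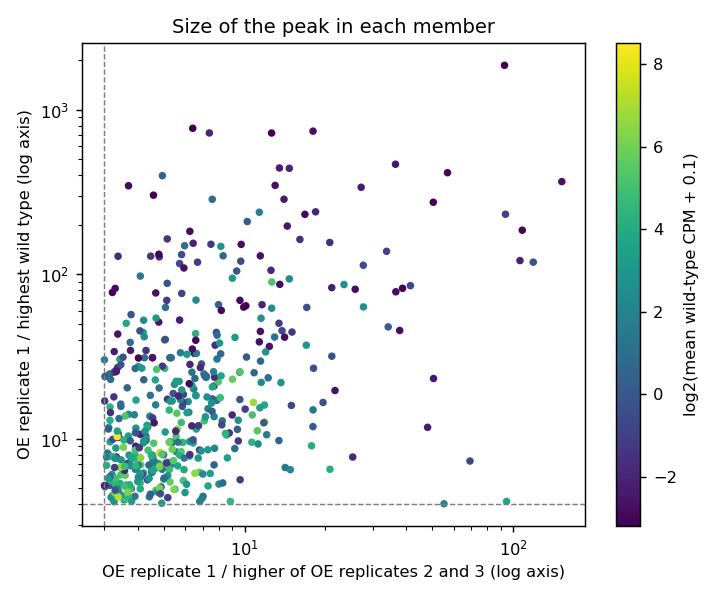
Ratio of the CPM in KlaxMUTE1 OE replicate 1 to the higher of OE replicates 2 and 3 (x axis, logarithmic) and to the highest wild-type library (y axis, logarithmic) for the 469 members with a count in OE replicate 2 or 3. Dashed lines are the limits of 3 and 4 that chose the members, and color is the mean wild-type level. The medians are 5.33 and 13.0, and members with low wild-type levels reach the highest ratios over wild type.

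With the same limits set on another KlaxMUTE1 OE library, 408 gene models peaked in replicate 2 and 46 in replicate 3. The number for replicate 1 was thus close to that for replicate 2 and higher than that for replicate 3, the line with the highest KlaxMUTE1. A peak in 1 line was not particular to the line with the lowest KlaxMUTE1.

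The 14 members described in detail are the 12 with a similarity note in the part of the annotation used here and 2 without. That part held 1190 gene models of 1 contig, 904 of them with a similarity note, and 19 members fell on it. They are written here by the gene that their predicted protein resembles. Members made up 1.60% of the annotated gene models and 1.70% of all. Fold changes are those of edgeR's quasi-likelihood fit over the 21902 gene models, with the standard error (SE). A call required a log2 fold change past 1 in either direction at an adjusted p below 0.1. Since the same libraries chose the members, these values are descriptions and no p is given for a member.

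Among receptor, defence, stress-related and membrane proteins, the CRK3-like KlGene000252 encodes a cysteine-rich receptor-like kinase. It was at 17.6, 20.8, 23.4 and 17.6 CPM in wild-type replicates 1 to 4 and at 366, 85.5 and 116 CPM in KlaxMUTE1 OE replicates 1 to 3. All 3 lines lay above all wild-type libraries, with a log2 fold change of 3.10 ± 0.51 (SE) over all libraries and 2.12 ± 0.20 without replicate 1. Both fits met the limits.

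The PR5-like KlGene000515 resembles a thaumatin-like pathogenesis-related protein, a widely used marker of the salicylic acid response in Arabidopsis. It was at 16.7, 8.35, 9.61 and 6.87 CPM in wild type and at 461, 60.0 and 115 CPM in KlaxMUTE1 OE replicates 1 to 3. The groups did not overlap, and the log2 fold change was 4.21 ± 0.73 over all libraries and 2.86 ± 0.39 without replicate 1. The gene model is 6149 bases long and carries a DnaJ domain beside the thaumatin domain, so its counts may join neighbouring genes.

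The EDR2-like KlGene001136 resembles a protein that in Arabidopsis limits cell death and resistance to powdery mildew. Wild type held 3 counts, all of them in replicate 1. KlaxMUTE1 OE held 289, 2 and 24 counts in replicates 1 to 3, or 14.0, 0.0735 and 1.03 CPM. The gene model is 12295 bases long, against a median of 2875 over all tested. Whether its counts join neighbouring genes was not examined. Replicate 2 fell within the wild-type range, and without replicate 1 the gene model did not meet the limits.

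The SRP-like KlGene000557 belongs to the rubber elongation factor family, whose members coat rubber particles or lipid droplets. It was at 0.107, 0.324, 0.257 and 0.281 CPM in wild type and at 12.0, 1.47 and 1.55 CPM in KlaxMUTE1 OE replicates 1 to 3. The lines lay above wild type in each case, with a log2 fold change of 2.37 ± 0.49 without replicate 1. The limits were met with and without replicate 1.

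The TET8-like KlGene001028 is a tetraspanin, a membrane protein that in Arabidopsis marks extracellular vesicles. It was at 89.4, 88.0, 83.8 and 98.2 CPM in wild type and at 507, 103 and 140 CPM in KlaxMUTE1 OE replicates 1 to 3. Its peak stood on a high wild-type level, and replicate 2 was only just above the highest wild-type library. Its fitted log2 fold change was 1.33 ± 0.53 over all libraries, which met the limits, and 0.22 ± 0.19 without replicate 1, which did not. Leaving out any of the wild-type libraries also ended the call, with log2 fold changes of 1.28 to 1.34.

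Among transcription factors and other regulators, the COL16-like KlGene000060 encodes a CONSTANS-like protein, of a family of B-box zinc finger transcription factors. A single read, 1 count in replicate 3, was all that wild type held, against 685, 42 and 120 counts in the 3 lines. This corresponded to 33.1, 1.54 and 5.17 CPM in KlaxMUTE1 OE replicates 1 to 3 and to at most 0.0429 CPM in wild type. All 3 lines were far above wild type, and the gene model met the limits in both fits. Its fitted fold change depends on the prior count and is not given.

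The ZHD11-like KlGene000178 encodes a zinc finger-homeodomain protein, a plant-specific class of DNA-binding proteins. It was at 7.07, 10.7, 7.72 and 8.37 CPM in wild type and at 350, 29.5 and 57.3 CPM in KlaxMUTE1 OE replicates 1 to 3. The lines again lay above wild type without overlap. The log2 fold change was 3.97 ± 0.81 over all libraries and 2.15 ± 0.29 without replicate 1.

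The SRO2-like KlGene000236 resembles a probable inactive poly(ADP-ribose) polymerase, of the plant family that includes RCD1. It was at 0.429, 0.243, 0.0429 and 0.187 CPM in wild type and at 69.9, 3.75 and 4.35 CPM in KlaxMUTE1 OE replicates 1 to 3. Replicate 1 was 16.1 times the next highest library, and the other lines also exceeded wild type throughout. Its log2 fold change was 6.73 ± 1.31 over all libraries and 3.95 ± 0.58 without replicate 1.

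The PUB19-like KlGene000398 resembles a U-box ubiquitin ligase that in Arabidopsis dampens responses to abscisic acid and drought. It was at 11.4, 14.6, 20.2 and 17.5 CPM in wild type and at 183, 5.55 and 10.3 CPM in KlaxMUTE1 OE replicates 1 to 3. Replicate 1 was thus 9.08 times the highest wild-type library, while the other lines lay below every wild-type library. Over all libraries the log2 fold change was 1.93 ± 1.06 and did not meet the limits. Without replicate 1 it was -1.22 ± 0.35, which met them in the opposite direction, and without replicate 2 it was 2.48 and met them upward.

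Among the remaining annotated members, the CBSX1-like KlGene000833 resembles a chloroplast protein that in Arabidopsis binds and activates thioredoxins. It was at 5.20, 5.31, 6.22 and 5.05 CPM in wild type and at 584, 39.8 and 32.5 CPM in KlaxMUTE1 OE replicates 1 to 3. Replicate 1 was 14.7 times the next highest library and 93.8 times the highest wild-type library. Without replicate 1 the log2 fold change was 2.49 ± 0.16, with both lines above wild type.

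The FH16-like KlGene000208 is a formin, a class of proteins that nucleate actin filaments. It was at 6.21, 5.80, 9.35 and 5.47 CPM in wild type and at 47.8, 9.44 and 15.8 CPM in KlaxMUTE1 OE replicates 1 to 3. Its ratio of replicate 1 to replicate 3 was 3.02, near the limit of the rule, and replicate 2 barely exceeded the highest wild-type library. Its fitted log2 fold change was 1.70 ± 0.54 over all libraries, which met the limits, and 0.69 ± 0.32 without replicate 1, which did not. The call was also lost at 1.58 to 1.64 without wild-type replicate 1, 2 or 4.

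The SLC35F1-like KlGene000648 resembles a human member of a solute carrier family. It was at 10.9, 8.84, 7.85 and 7.85 CPM in wild type and at 113, 24.6 and 30.6 CPM in KlaxMUTE1 OE replicates 1 to 3. The groups did not overlap, and the log2 fold change was 2.51 ± 0.54 over all libraries and 1.42 ± 0.20 without replicate 1. It met the limits in both fits.

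**Figure D3:**
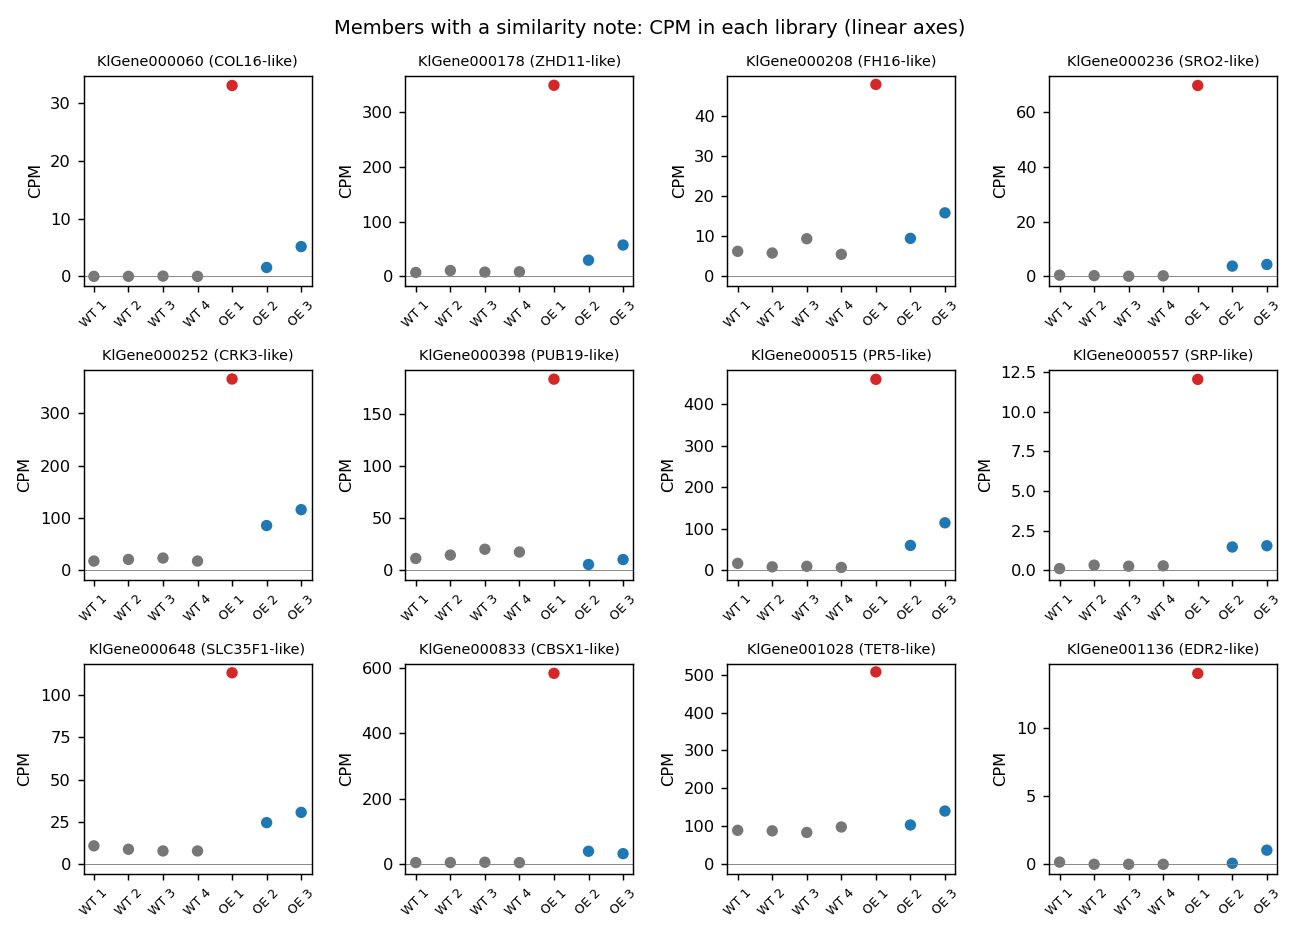
CPM (linear axes) of the 12 members with a similarity note in each of the 7 libraries. Wild-type (WT) libraries are grey, KlaxMUTE1 OE replicate 1 is red and OE replicates 2 and 3 are blue. OE replicate 1 is highest in each panel by construction, and the PUB19-like KlGene000398 is the panel in which both other lines (5.55 and 10.3 CPM) lie below all wild-type libraries (11.4 to 20.2 CPM).

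Of the members without a similarity note, KlGene020449 had the highest CPM in KlaxMUTE1 OE replicate 1. It was at 406, 436, 364 and 243 CPM in wild type and at 4498, 1250 and 1340 CPM in KlaxMUTE1 OE replicates 1 to 3. All lines were above wild type, with a log2 fold change of 1.62 ± 0.25 without replicate 1. KlGene028520 had the highest ratio of replicate 1 to the other libraries. Wild-type replicates 1 to 4 held 2, 0, 1 and 2 counts of it, and the lines held 811, 7 and 6, so that replicate 1 was 152 times the next highest library. In the other lines it was at 0.257 and 0.258 CPM, against at most 0.107 CPM in wild type, a difference of a few reads.

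Another 7 members on the annotated contig are noted as proteins of unknown function, and 3 of these carry a domain match. These 3 were picked out after their values were seen. KlGene000418, with a PB1 protein interaction domain, was at 6.05, 1.91, 1.50 and 5.05 CPM in wild type and at 122, 14.3 and 18.8 CPM in KlaxMUTE1 OE replicates 1 to 3. KlGene000961, with a domain of unknown function, was at 9.43, 0.771, 0.515 and 4.63 CPM in wild type and at 129, 16.6 and 16.7 CPM in the lines. Both were unevenly expressed among wild-type plants, high in replicates 1 and 4 and low in replicates 2 and 3. KlGene001237, with another such domain, was even in wild type at 13.7 to 15.9 CPM and was at 105, 21.4 and 22.6 CPM in the lines.

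The rule left some room for whether the members also stood apart from wild type in the lines in which they did not peak. Its limit was stricter for wild type than for those lines, however. In the fit over all 7 libraries, 390 members were called higher in KlaxMUTE1 OE (82.8%, with 12.6% of all tested gene models called higher). The rule used this contrast, so nothing is read from that share. Without replicate 1, 225 members were called higher in replicates 2 and 3 (47.8%, with 12.6% of all tested called) and 6 were called lower (1.27%, with 8.5% of all tested called, and 11 with replicate 3 left out as well). All 225 were also called in the fit over all libraries, and 165 members were called only with replicate 1 included. The remaining 81 were not called higher with all libraries.

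The median log2 fold change of the members was 2.90 over all libraries (0.07 over all tested) and 1.19 without replicate 1 (0.03 over all tested). Without replicate 1 it was above 0 in 418 members and below 0 in 53, with quartiles of 0.42 and 2.44. The rule sets an upper limit on replicates 2 and 3 and on wild type but sets neither against the other directly. Replicate 1 had to be 4 times the highest wild-type library but only 3 times each other line. This favours members with wild type below replicates 2 and 3, and all tested gene models had no such limit. The rule also used the same libraries. These counts, and those by CPM alone, are therefore given beside those of all tested gene models only as a description.

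**Figure D4:**
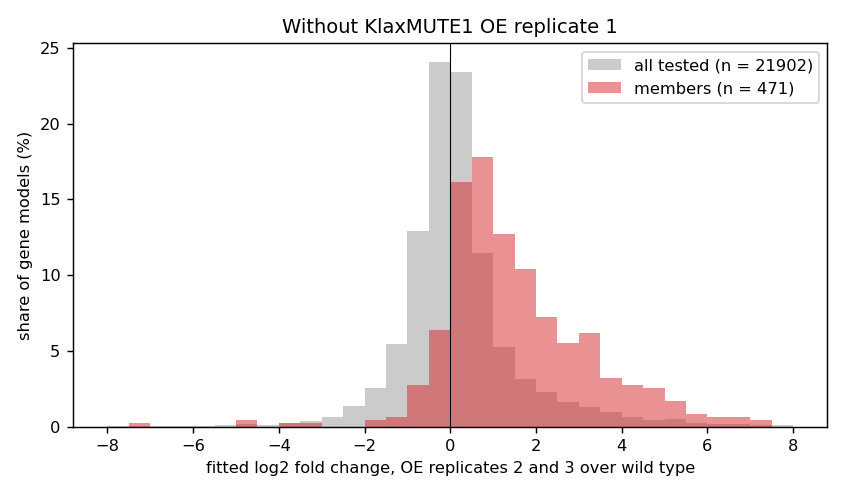
Share of gene models in percent by fitted log2 fold change of KlaxMUTE1 OE replicates 2 and 3 over wild type, without OE replicate 1, in bins 0.5 wide with values past 8 placed in the end bins. Grey, all 21902 tested; red, the 471 members. The members' median is 1.19 and that of all tested is 0.03.

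By CPM alone, replicates 2 and 3 were both above every wild-type library in 348 members (73.9%, with 36.4% of all tested). Since replicate 1 was above wild type in every member by the rule, every KlaxMUTE1 OE library was above every wild-type library in the same 348 (26.6% of all tested). After scaling by the trimmed mean of M values (TMM), which adjusts for a few genes taking many counts, the number was 296 (62.8% of members), with 25.6% and 19.0% of all tested for these counts. Both lines together were below every wild-type library in 4 members by CPM (0.849%, with 15.6% of all tested) and in 13 after TMM scaling (2.76%, with 24.2%). Replicate 3 was above replicate 2 in 280 members (59.4%, with 39.9% of all tested), and replicate 2 was above in 189. The median ratio to the wild-type mean was 2.31 in replicate 2 and 2.77 in replicate 3, against 18.7 in replicate 1.

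The 6 members called lower without replicate 1 were the PUB19-like gene model and 5 without an annotation used here. Of the latter, 2 were picked out after their values were seen. KlGene012373 was at 11.9, 13.3, 6.05 and 17.6 CPM in wild type, at 73.3 CPM in KlaxMUTE1 OE replicate 1 and at 0.220 and 0.775 CPM in replicates 2 and 3. It was nearly silent in those lines, with a log2 fold change of -4.84 ± 0.64. KlGene012875 was at 0.482, 10.6, 4.20 and 2.95 CPM in wild type, at 42.8 CPM in replicate 1, and at 0 and 0.775 CPM in replicates 2 and 3. Here wild type varied widely, and its lowest library was below replicate 3.

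Wild-type plants also differed in the members. Among members with a wild-type mean of at least 5 CPM (206), the median coefficient of variation over the 4 wild-type libraries was 0.181. It was 0.137 over the 14281 tested gene models with at least that mean. Levels above that floor were not matched, and the part of counting error in the difference was not tested. The highest wild-type library was replicate 1 for 193 members (41.0%, with 29.0% of all tested), replicate 2 for 113 (24.0%, with 34.2%), replicate 4 for 110 (23.4%, with 23.5%) and replicate 3 for 55 (11.7%, with 13.3%). Their summed share was nevertheless within 0.532 to 0.595% in each of these plants.

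The median length of the members was 2407 bases (quartiles 1270 and 3564), and that of all tested gene models was 2875 bases (1686 and 4380). In the annotated part, gene numbers follow the order of numbered windows along the contig. All 1189 consecutive pairs were in window order, with pairs in the same window counted as in order. Order within a window was not checked. A direct neighbour by number was another member for 39 members (8.28%), against 3.24% of all tested gene models with a member next to them. Within 5 gene numbers the values were 112 members (23.8%) and 14.3%. These gave 48 pairs, 4 runs of 3 and 1 run of 4, while 359 members stood alone. In the run of 4, replicate 1 reached 239, 7.93, 73.2 and 632 CPM. Whether neighbours share sequence was not examined.

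The gene lists, matched by keywords on the annotation notes, held few members. Over all libraries, 12.6% of all tested gene models were called higher and 7.6% lower. Of the defence and wounding list (14 annotated, 10 tested), 2 gene models were called higher over all libraries and 0 lower. These 2 were the PR5-like and EDR2-like members themselves, which the rule chose for high values in replicate 1. Nothing is therefore read from their count, and no other model of the list was called higher. At an unadjusted p under 0.05 in edgeR's fit, 6 were higher and 1 lower, and DESeq2 called the same 2 members higher and 0 lower. Without replicate 1, edgeR called 1 higher, the PR5-like member, and 1 lower. Not every defence gene peaked with them. The tobacco PR1C-like KlGene000433, which is no member and was picked out after its values were seen, was at 9.91, 434, 499 and 181 CPM in wild type. It was at 1.50, 132 and 0.775 CPM in KlaxMUTE1 OE replicates 1 to 3, so that replicates 1 and 3 were lower than any wild-type library. It was not called in either fit, with log2 fold changes of -2.94 over all libraries and -2.37 without replicate 1. PR1 genes are, like PR5, markers of the salicylic acid response in Arabidopsis, and the gene lies next to a similar model with which it may share reads. That model, the PR1-like KlGene000432, was at 0.911 to 33.8 CPM in wild type and at 0.290, 13.7 and 1.89 CPM in the lines. It was not called either, and its replicate 3 lay within the wild-type range.

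Receptor-like kinases held 1 member, the CRK3-like model, among 24 tested, of which 9 were called higher and 0 lower with edgeR and with DESeq2, and 9 were higher and 3 lower at an unadjusted p under 0.05. Transcription factors held 1 member, the COL16-like model, among 47 tested, with 8 higher and 4 lower, and with 14 higher and 4 lower without replicate 1. Cell cycle and cytokinesis held 1 member, the FH16-like formin, among 16 tested, with 6 higher and 1 lower, and the lower call was lost without replicate 1. In each of these lists the member is counted among the higher calls over all libraries. The lists for cell wall, hormones, heat and other stress, photosynthesis, cuticle and lipid, secondary metabolism, transporters, shoot meristem and flower, and root held 0 members. The other 7 members with a similarity note were in no list, among them the ZHD11-like model, whose note lacks the keywords.

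The summed keyword lists for tissue types also differed between the libraries, and some sums rested mostly on 1 gene model. The 5 photosynthesis gene models summed to 12984 to 14192 CPM in wild type and to 7403, 6801 and 11042 CPM in KlaxMUTE1 OE replicates 1 to 3, with 2 of 5 called lower by edgeR and by DESeq2. The cell cycle list summed to 209 to 248 CPM in wild type and to 349, 281 and 284 CPM in the lines. Without its member and the gene model that the rule left out by name, a choice made after seeing the data, it summed to 202 to 242 CPM in wild type and to 239.8, 257 and 247 CPM in the lines. That sum hardly shows models at low levels. The CCAR1-like KlGene000163 alone held 72.3 to 105 CPM in wild type and 96.4 CPM in replicate 1. The CYCB2-4-like KlGene000552 was at 0.343 to 0.857 CPM in wild type and at 3.72, 6.76 and 6.24 CPM in the lines. Of the 16 tested models 6 were called higher, the member and the left-out model among them, and 1 lower. The shoot meristem and flower list (4 tested) summed to 208 to 282 CPM in wild type and to 71.2, 311 and 315 CPM in the lines. Nearly all of it came from the KNAT3-like KlGene001126 (70.5 CPM in replicate 1 and 207 to 281 CPM in wild type), while the AP1-like model was at 0 to 0.0430 CPM in every library. The root list (3 tested) summed to 71.8 to 83.2 CPM in wild type and to 58.3, 59.4 and 55.0 CPM in the lines, and its Casparian strip protein was at 0 in every library. Most of that sum came from KlGene000251, noted as similar to a root isoform of phosphatidylinositol 3-kinase. It was at 68.4 to 77.9 CPM in wild type and at 52.9, 52.1 and 46.7 CPM in the lines. The RPD1-like KlGene000626 went the other way, at 3.43 to 5.19 CPM in wild type and 5.42, 6.91 and 8.26 CPM in the lines. The meristem and flower sum was thus lowest in replicate 1 through the KNAT3-like model. It follows that 1 gene model and is not read as an amount of meristem or flower tissue. The other models of that list were at most 1.40 CPM in every library. The cell cycle sum of replicate 1 was within the wild-type range once the list's member and the left-out model were taken out, which says little on models at low levels. The photosynthesis sum was below wild type in all 3 lines, and further below in replicates 1 and 2 than in replicate 3. Most of it came from the RBCS1-like KlGene000058, which was not called. That model was at 9996 to 11313 CPM in wild type and at 5228, 5448 and 9228 CPM in the lines. The part of these differences in the members' peak was not tested.

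DESeq2, the tool of the study, leaves a gene model without a p when 1 library is far from its group. It did so for 261 tested gene models (1.19%), of which 140 were members (29.7% of members) and 162 were highest in replicate 1. It called 312 members higher, with 12.6% of all tested called higher by the same tool.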

How the data were processed

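Bulk poly(A) RNA libraries of mature leaves came from 4 wild-type individuals and 3 KlaxMUTE1 OE lines, and were grouped by their titles. The authors used HISAT2 for alignment to the OBG genome, and the deposited counts are raw htseq-count values per MAKER gene model. The authors also deposited TPM values (counts per gene length scaled to a fixed sum), used here only as an alternative scale. Deposited columns headed mean TPM hold mean raw counts, and neither they nor the columns of reads per kilobase were used. For tool versions, strand setting and multi-mapping reads, the handling was not given in the sources used here. Since the labels do not say how plants were paired or grown together, p-values measure only the spread between these libraries.

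CPM, the members and all values were computed with Python 3.11.15, pandas 2.3.3 and scipy 1.17.1. The whole table was fitted in R 4.3.3 with edgeR 4.0.16 (TMM, glmQLFit, glmQLFTest, prior count 0.125, Benjamini-Hochberg adjustment) over gene models with at least 10 counts, and SEs were derived from the F statistic. DESeq2 1.42.0, limma 3.58.1, other scalings, filters, limits, left-out libraries and a replicate block were alternatives. The procedures were tested on simulated data. The members and lists were chosen with earlier results of these data known. The genes named were the members with a similarity note, the 2 other members with the highest CPM and the highest ratio in KlaxMUTE1 OE replicate 1, and KlaxMUTE1. Further gene models were named outside that rule, after their values were seen. These were 3 members of unknown function with a domain match, and 2 of the members called lower without replicate 1. A PR1C-like model, its PR1-like neighbour and a KNAT3-like model were named in the same way. The other models given singly for the photosynthesis, cell cycle, root, and meristem and flower lists were also among them. Gene names come from the part of the study's annotation used here, and no genome or sequences were used. The floor for 0 was 3 counts per library, and intervals and floors cover counting error only.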

Additional observations from a re-analysis of the deposited data

Results flagged for a closer look

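Dixon's ratio (gap to the nearest library over the range) was computed for 20 measures over the 4 wild-type libraries, and 3 were over its 95% critical value. Chance gives about 1 in 20. The COL16-like KlGene000060 had a ratio of 1, as its only wild-type count, 1, was in replicate 3. The EDR2-like KlGene001136 also had a ratio of 1, as its 3 wild-type counts were all in replicate 1. The number of gene models with a count had a ratio of 0.949, since wild-type replicate 2, the deepest of the group at 24659199 counts, had 21849 against 21594 to 21607 in the others.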

How the results depend on the processing

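The number of members, 471, was 260 with a limit of 5 times the other lines in place of 3, and otherwise stayed within 1.5 times. It was 483 on TMM-normalized CPM (460 shared), 469 on TPM (442 shared), and 467 to 618 with a library left out. Members called higher over all libraries (390) were 206 with limma-voom (9.84% of all tested called) and 225 without KlaxMUTE1 OE replicate 1, with a range of 225 to 444 over the left-out libraries (8.74 to 12.6% of all tested). Without replicate 1, 184 to 233 members were called higher (10.1 to 12.8% of all tested) and 5 to 11 lower (6.95 to 9.55%) as further libraries were left out, with 11 lower without KlaxMUTE1 OE replicate 3. The median log2 fold change was 1.19 to 3.31 over the left-out libraries, the lowest without KlaxMUTE1 OE replicate 1. Scaling by library size alone moved the median of all tested gene models from 0.07 to 0.27 and that of the members from 2.90 to 3.04. Non-overlap after TMM scaling (296 members) was an alternative chosen after seeing the data. Where a count moved with a tool, the cause was not tested.

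Of 203 alternatives for the named gene models, 181 kept direction and call, 20 lost the call and 1 gained it. The PUB19-like KlGene000398 reversed to -1.22 without KlaxMUTE1 OE replicate 1 and met the limits at 2.48 without replicate 2. The FH16-like KlGene000208 and the TET8-like KlGene001028 lost the call most often (6 and 7 of 15). The labels give no pairing of samples beyond a replicate number. Same-numbered libraries of the 2 genotypes deviated together at r = 0.0971, 0.0288 and 0.0882, and differently numbered ones at r = -0.127 to 0.0899. With so few pairs, these values cannot decide whether plants were paired. With the replicate block, 195 members were called higher over all libraries (7.00% of all tested), 185 higher (8.85%) and 6 lower (7.92%) without replicate 1, and the median was 2.14.

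Replicate 1 is 1 library, so its peak has no replicate check. Leaving it out shows only how the other lines stood against wild type. Depth limited members nearly silent in wild type, where 1 to 3 counts set the level. Names cover 1 contig, so the roles given describe 12 of 471 members.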
